A study of Homo sapiens with 5 samples.

Results

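Type I interferon response genes were compared between REH leukaemia cells recovered from the brain and from the spleen of transplanted mice. The set held 47 human genes, chosen by name for their textbook place in the response and matched by Ensembl identifier to the 65217 gene identifiers of the deposited count table. This set and the other lists below were chosen with earlier results of these data known. Their shares of genes called are therefore descriptions and no test of the lists. REH is a long-established line of acute lymphoblastic leukaemia, of human precursor B cells, with the ETV6-RUNX1 (TEL-AML1) fusion. It stands for 1 leukaemia grown in a host of another species. The 3 brain libraries and 2 spleen libraries each held RNA combined from 5 mice. All mice were NSG animals (NOD.Cg-PrkdcscidIl2rgtm1Wjl/SzJ) that were 6 to 10 weeks old and untreated apart from the transplant, and they lack mature T, B and NK cells but keep myeloid cells. Brain cells came from the leptomeninges, and cells from both sites had been purified on a density gradient. Per the labels' protocols, the replicate number marks the occasion of the experiment, and spleen replicate 3 had been left out by the submitters for quality. The deposited tables number the spleen columns 2 and 4 where the titles give replicates 1 and 2, so the match of spleen pools to occasions is uncertain. P-values therefore measure the spread between pools made on different occasions, not between single mice.

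In the type I interferon response, foreign or misplaced RNA is sensed by the RIG-I-like receptors RIGI (RIG-I), IFIH1 (MDA5) and DHX58 (LGP2), which leads to the making of interferon alpha and beta. Secreted interferon binds the receptor chains IFNAR1 and IFNAR2, and the kinases JAK1 and TYK2 then activate factors of the STAT family. STAT2 joins IRF9 in the complex ISGF3, which binds interferon-stimulated response elements in the promoters of the target genes, and the targets include antiviral effectors as well as the sensors and IRF7 themselves.

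Part of the response genes were higher in brain cells, and most did not pass the test. Of the 46 genes with enough counts to be tested, 13 (28.3%) were higher in brain cells and 1 was lower, by edgeR's quasi-likelihood test at an adjusted p of 0.05. Among all 20419 genes tested, 6.01% were higher and 3.5% were lower, or 9.51% in either direction. The median log2 fold change, brain over spleen, was 0.24 for the response genes and 0.00656 for all genes tested. Of the 46, 42 had a log2 fold change above 0, and values ran from -0.51 to 1.94. In 25 genes every brain library was above every spleen library, in 1 every brain library was below, and in 20 the groups overlapped. The same order, every brain library above, held for 23.3% of all genes tested, and the reverse order for 19.5%. In pools of this kind, fewer cells with a response and less RNA per cell cannot be told apart. OASL, an oligoadenylate synthetase-like protein, was not tested, with 4, 10 and 7 counts in brain libraries and 2 and 7 counts in spleen libraries.

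The genes that were higher were IRF7, IRF9, IFIH1, OAS1, OAS3, IFIT2, IFIT3, IFITM1, CMPK2, SAMD9, PARP14, PLSCR1 and IFI44L, and LY6E was lower. Their CPM (counts scaled to library size with TMM factors) added up to 406, 405 and 409.9 in brain libraries 1 to 3 and 278 and 276 in spleen libraries 1 and 2, leaving out LY6E. Over all 47 genes the sums were 2053, 2062 and 2146 CPM in brain libraries and 1861 and 1799 CPM in spleen libraries. The differences were mostly small, and 4 of the 13 reached a fold of 2. Of the 46 genes, 12, 11 and 19 had their highest level in brain library 1, 2 and 3. Another 3 and 1 had it in spleen library 1 and 2. The same count was not made over all genes, and 3 of the 5 libraries came from brain.

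**Figure D1:**
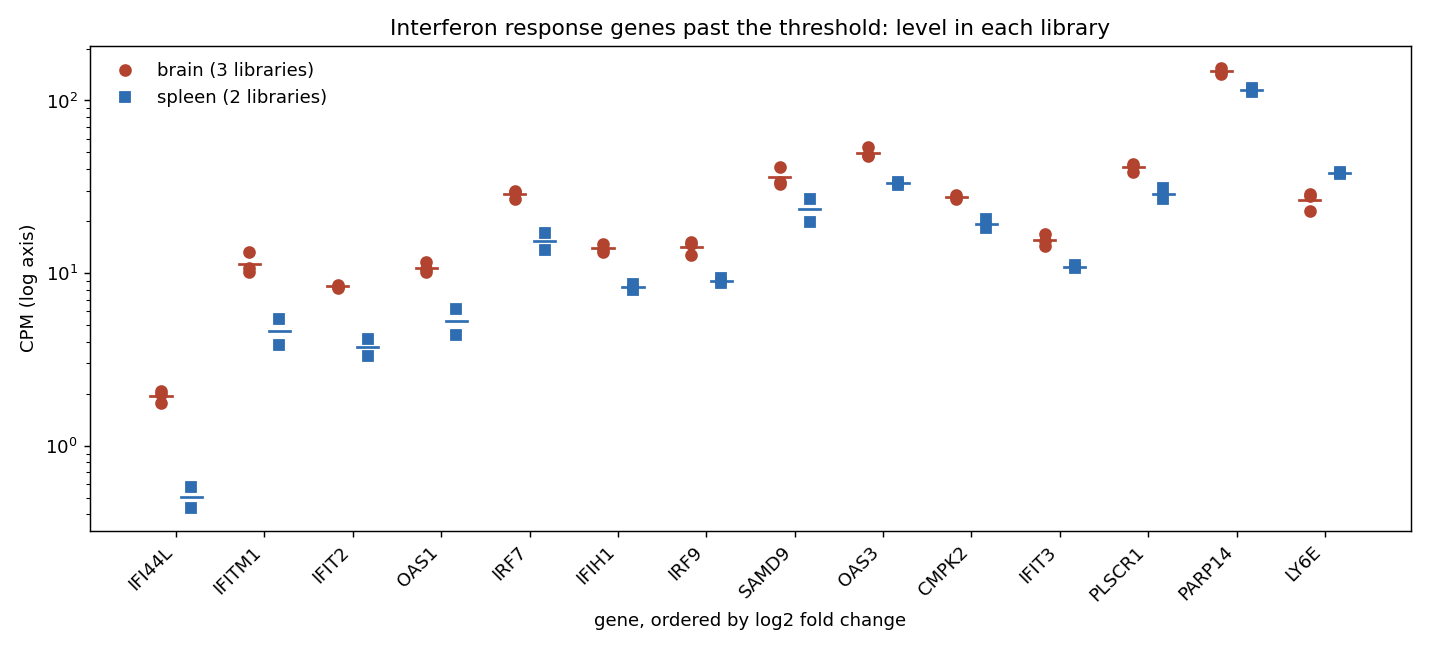
Level of each interferon response gene past the threshold in each library, in CPM on a log axis, with genes ordered by log2 fold change. Points are single libraries, 3 from brain and 2 from spleen; IFI44L had 1.78 to 2.06 CPM in brain libraries and 0.433 and 0.575 CPM in spleen libraries, while LY6E was the gene with lower brain values.

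The share of mouse RNA differed between the sites, and the calls changed when it entered the fit. Mouse transcripts took 5.70%, 2.58% and 2.64% of all estimated counts in brain libraries and 6.33% and 8.87% in spleen libraries. Brain library 1, with the largest share among brain libraries, had 2053 CPM summed over all 47 genes. Brain libraries 2 and 3 had 2062 and 2146 CPM. Sums over the higher genes are no check here, since the test that picked those genes used these same libraries. With this share as a covariate beside the site, 0 of the 46 genes passed edgeR's test, and 0.558% of all genes were still called higher. An unadjusted p under 0.05 was found for 10 of the 46 with a higher brain level and 2 with a lower one. The share of all genes with such an unadjusted p was not counted, so these 2 counts cannot be read as an excess. The median log2 fold change of the 46 was 0.24 in that fit as well. The shares of the 2 sites do not overlap, so the host RNA and the site cannot be fully told apart with 5 libraries. Human cells were B-lineage in both groups, since 9 of 10 precursor B cell markers had at least 1 CPM in every library, with VPREB1 at 0. Their summed CPM was 5736, 5809 and 5699 in brain libraries and 6786 and 6401 in spleen libraries. CD79A was the 1 marker of this list past the threshold. It was lower in brain cells, with 608, 754 and 721 CPM in brain libraries and 1018 and 1101 CPM in spleen libraries. Of the other human cell types, T cell markers summed to 0.505 to 0.794 CPM in brain libraries and 0.137 and 0.218 CPM in spleen libraries, with CD3D at 0. Myeloid markers summed to 2.73 to 5.71 CPM in brain libraries and 3.30 and 4.05 CPM in spleen libraries. Plasmacytoid dendritic cells are strong makers of interferon, and of their 5 markers GZMB was at 0, CLEC4C at no more than 0.111 CPM and LILRA4 at 0.111 to 0.319 CPM. IL3RA had 1.77, 1.58 and 2.2 CPM in brain libraries and 1.03 and 1.15 CPM in spleen libraries, without overlap, and did not pass. TCF4, which B-lineage cells also use, made up nearly all of that list's sum of 353, 365 and 387 CPM in brain libraries and 158 and 172 CPM in spleen libraries, and was higher. The part of other cell types in the results was not tested.

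The response element that ISGF3 binds has as its core the letters GAAA, 2 bases of any kind and GAAA again. The gene set was not chosen by sequence but as textbook genes of the response, whose targets ISGF3 binds through this element. The share of the set with these letters is therefore a description and no test. The letters were looked for on both strands in RefSeq windows from 250 bases before to 50 bases after a start (GRCh38.p14). Windows were given for 36 of the 47 genes, and 25 of the 36 (69.44%) held the letters in at least 1 window. Among all 27305 genes with a window the share was 4.38%. Of the 11 genes that were higher in brain cells and had a window, 8 (72.73%) held the letters, and of the 25 that did not pass the test 17 (68.0%) did. The letters were thus about as frequent in genes that did not differ past the threshold as in those that did. Across all genes called higher in brain cells, 60 of 864 (6.94%) held them. The letters TTCNNNGAA, the core that STAT dimers bind, were in the windows of 10 of the 36 genes (27.78%) and of 9.38% of all genes. Matches to the 2 cores were counted separately, whether or not they overlapped. The STAT letters were in 5 of the 11 higher genes (45.45%) and in 5 of the 25 that did not pass (20%). A match is a run of letters and not a site shown to be bound, and a window without a match is not shown to lack a site.

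The 8 higher genes with the letters are printed first, 1 match of each gene with 15 bases on both sides and the matching letters in capitals, 5′ to 3′ on the strand named. They show how far the core and its surroundings vary among genes that differed between the sites.
IFI44L (chr1:78620360-78620399, plus strand): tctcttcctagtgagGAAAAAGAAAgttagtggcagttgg
IFIH1 (chr2:162318681-162318720, minus strand): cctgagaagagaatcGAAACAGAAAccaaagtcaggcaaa
IFIT3 (chr10:89327860-89327899, minus strand): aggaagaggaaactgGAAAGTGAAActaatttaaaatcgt
IFITM1 (chr11:314019-314058, plus strand): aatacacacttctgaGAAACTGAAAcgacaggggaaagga
OAS3 (chr12:112938447-112938486, plus strand): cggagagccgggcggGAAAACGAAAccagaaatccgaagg
PARP14 (chr3:122680795-122680834, plus strand): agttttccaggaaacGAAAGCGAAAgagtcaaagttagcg
PLSCR1 (chr3:146544662-146544701, minus strand): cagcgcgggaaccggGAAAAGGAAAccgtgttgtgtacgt
SAMD9 (chr7:93118091-93118130, minus strand): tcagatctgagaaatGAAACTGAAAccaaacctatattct
For comparison, 4 well known targets whose level did not differ past the threshold held the letters too.
MX1 (chr21:41420554-41420593, plus strand): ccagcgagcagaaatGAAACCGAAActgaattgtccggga
ISG15 (chr1:1013375-1013414, plus strand): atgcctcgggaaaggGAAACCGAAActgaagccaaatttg
IFIT1 (chr10:89392505-89392544, minus strand): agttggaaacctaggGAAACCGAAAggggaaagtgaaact
EIF2AK2 (chr2:37156962-37157001, minus strand): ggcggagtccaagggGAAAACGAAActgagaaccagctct
IRF9, OAS1 and CMPK2 were higher and had a window without these exact letters. The OAS1 window, and a window of CMPK2 on the other strand, held GAAA, 1 base and GAAA, which the search did not count. Windows of RIGI, IFI35 and XAF1, which did not pass the test and held no exact match, held this shorter run too. IRF7 and IFIT2 were higher and had no window in the table.

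The whole window of IFITM1 (chr11:313790-314089, plus strand) is given because this gene had the second largest fold change among those past the threshold and its window held the letters at 2 places, both in capitals.
IFITM1 window: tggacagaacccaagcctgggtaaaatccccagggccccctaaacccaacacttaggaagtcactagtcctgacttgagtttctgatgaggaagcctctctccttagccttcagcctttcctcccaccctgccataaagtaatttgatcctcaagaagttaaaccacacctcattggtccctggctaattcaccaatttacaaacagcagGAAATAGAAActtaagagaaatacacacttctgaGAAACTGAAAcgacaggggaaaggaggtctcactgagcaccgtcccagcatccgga

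**Figure D2:**
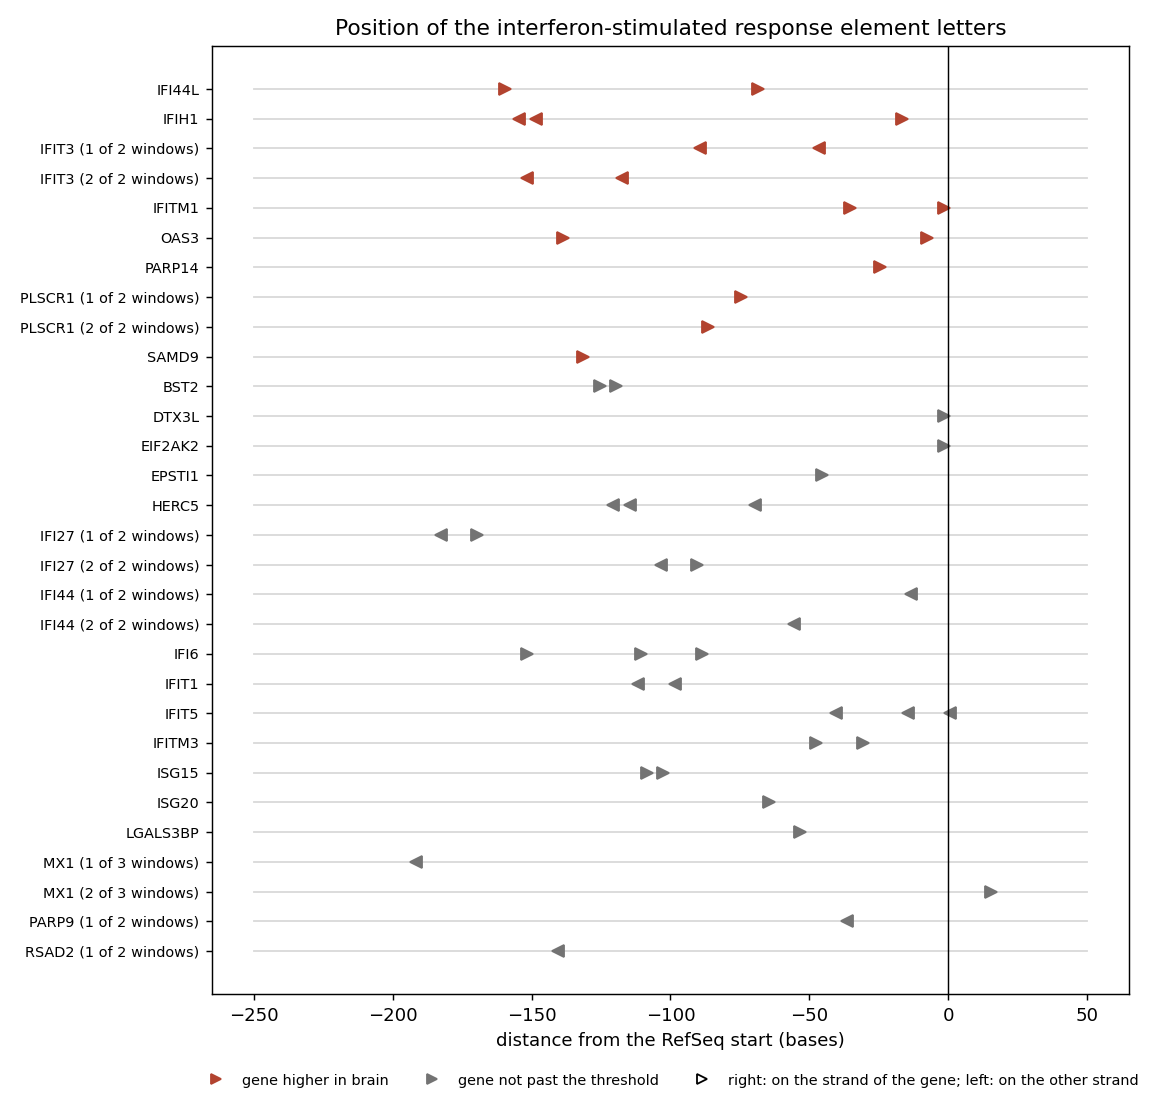
Position of the response element core, GAAA, 2 bases and GAAA, in the promoter window of each response gene that held them, as the distance in bases from the RefSeq start. Each arrowhead is 1 match, pointing right where it lies on the gene's strand and left on the other. Colour gives whether the gene was higher or not past the threshold. Most matches lay before the start in both kinds of gene, as did most of each window (250 bases before to 50 after). The printed MX1 match began 11 bases after the start.

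Among the transcription factors of the pathway, IRF7 and IRF9 were higher in brain cells and STAT2 did not pass the test. IRF7, the factor that drives the late and strong making of interferon alpha, had 26.8, 29.7 and 29.4 CPM in brain libraries and 17.1 and 13.6 CPM in spleen libraries. All brain libraries lay above both spleen libraries, with means of 28.6 ± 1.58 and 15.3 ± 2.43 CPM (SD, n = 3 and 2). The log2 fold change was 0.90 with a standard error (SE) of 0.129, a fold of 1.87, and the adjusted p by edgeR's quasi-likelihood test was 0.00442. IRF7 lies at chr11:612553-615983. IRF9, the DNA-binding subunit of ISGF3, had 12.7, 14.8 and 15.1 CPM in brain libraries and 9.32 and 8.79 CPM in spleen libraries. The groups did not overlap, and the log2 fold change was 0.65 (SE 0.137, adjusted p 0.0221). The call for IRF9 was lost when any of brain library 2, brain library 3 or either spleen library was left out, with adjusted p up to 0.079. STAT2, its partner in ISGF3, had 56.0, 61.5 and 49.1 CPM in brain libraries and 47.4 and 54.6 CPM in spleen libraries. These values overlapped, and the log2 fold change of 0.12 had a 95% interval from -0.15 to 0.40 (adjusted p 0.593).

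Of the RIG-I-like sensors, IFIH1 was higher in brain cells. IFIH1, which binds long double-stranded RNA and lies at chr2:162267074-162318684, had 14.8, 13.8 and 13.3 CPM in brain libraries and 8.61 and 7.93 CPM in spleen libraries. The brain libraries were close to each other and all above the spleen libraries. The log2 fold change was 0.75 (SE 0.132, adjusted p 0.011), and without brain library 1 the adjusted p was 0.0566. RIGI, which binds the ends of short viral RNA, had 24.3, 19.9 and 23.6 CPM in brain libraries and 19.4 and 17.5 CPM in spleen libraries. Its brain libraries were above its spleen libraries by a small step, and the log2 fold change of 0.29 (interval 0.01 to 0.58) did not pass after adjustment (adjusted p 0.184). DHX58, which tunes the other sensors, had 17.1, 18.1 and 12.8 CPM in brain libraries and 15.9 and 14.9 CPM in spleen libraries. These overlapped, with a log2 fold change of 0.06 (interval -0.31 to 0.42).

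Set side by side, 3 of the 6 sensors and transcription factors (50%) and 10 of the 40 tested effectors (25%) were higher in brain cells, beside 6.01% of all genes. The median log2 fold change was 0.47 for the sensors and factors and 0.22 for the effectors, and brain libraries were all above spleen libraries in 4 of 6 and in 21 of 40. Their summed CPM was 152, 158 and 143 in brain libraries and 118 and 117 in spleen libraries for the sensors and factors. For the effectors it was 1901, 1904 and 2002 CPM in brain libraries and 1743 and 1681 CPM in spleen libraries. The classes were described and not tested against each other, and 6 genes are too few for a stable median. The double-stranded RNA enzymes also read RNA, and counted with the sensors they gave 5 higher sensors and factors of 11 and 8 higher effectors of 35.

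**Figure D3:**
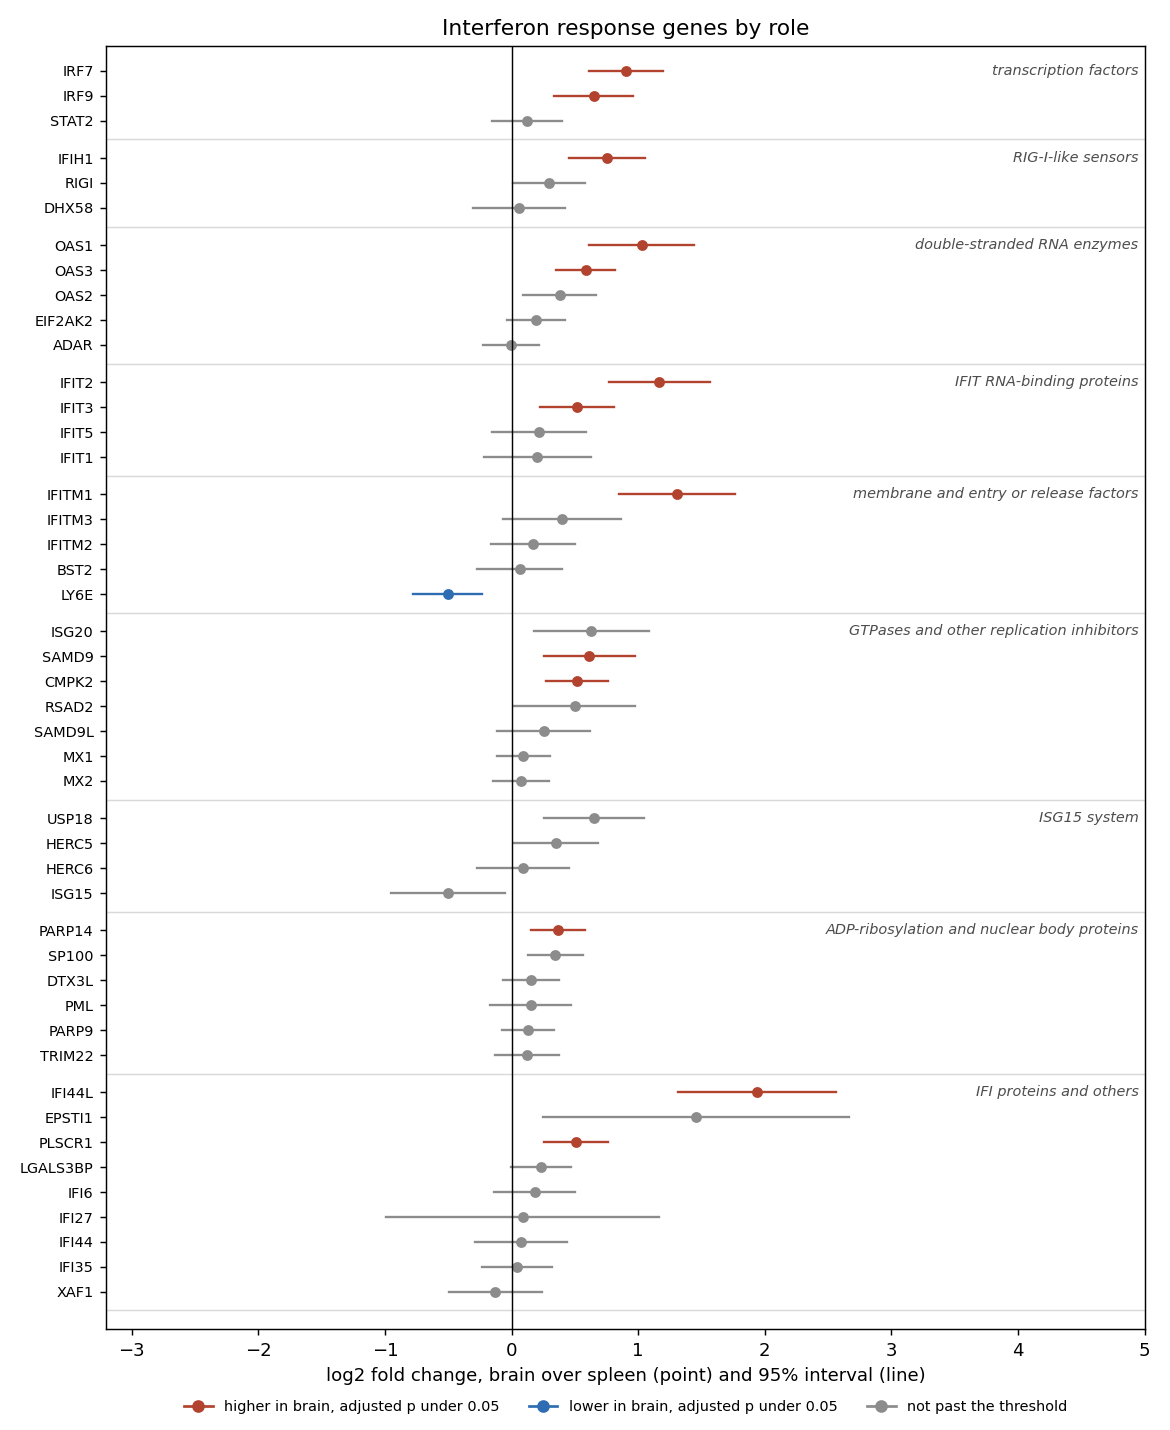
Log2 fold change, brain over spleen, of each tested interferon response gene, grouped by role. Points are estimates of edgeR's fit over 3 brain and 2 spleen libraries and lines are 95% intervals; most points lie to the right of 0, between the lowest value of -0.51 for LY6E and the highest of 1.94 for IFI44L.

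The double-stranded RNA enzymes held 2 higher genes of 5 tested. OAS1, an oligoadenylate synthetase whose product switches on the RNA-cutting enzyme RNase L, lies at chr12:112905856-112933219. It had 10.6, 10.2 and 11.5 CPM in brain libraries and 6.17 and 4.38 CPM in spleen libraries. Every brain library was above both spleen libraries, and the log2 fold change was 1.03 (SE 0.183, adjusted p 0.0116), a fold of 2.04. OAS3, a larger synthetase with the same product, had 47.6, 53.6 and 48.1 CPM in brain libraries and 32.6 and 33.8 CPM in spleen libraries. The gap between the groups was wider than the spread within them, with a log2 fold change of 0.59 (SE 0.102, adjusted p 0.011). OAS2 had 53.0, 55.2 and 62.6 CPM in brain libraries and 48.9 and 38.6 CPM in spleen libraries, which did not overlap but gave an adjusted p of 0.104. EIF2AK2, the kinase PKR that stops translation when it meets double-stranded RNA, had 105 to 120.5 CPM in brain libraries and 102 and 96.9 CPM in spleen libraries (log2 fold change 0.19, adjusted p 0.273).

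ADAR, which edits adenosine to inosine in double-stranded RNA, was the enzyme with the highest level of its class and showed no difference past the threshold. It had 379, 377 and 415 CPM in brain libraries and 393 and 390.0 CPM in spleen libraries, with a log2 fold change of -0.00 and an interval from -0.23 to 0.22. ADAR has a long form, p150, whose promoter responds to interferon, and a shorter constitutive form, and these were read by transcript identifier. The long coding transcript (ADAR-202, 1226 codons) had 36.4, 24.0 and 20.5 TPM (level per transcript length) in brain libraries and 17.9 and 30.9 TPM in spleen libraries. The short one (ADAR-201, 931 codons) had 39.1, 53.7 and 65.2 TPM in brain libraries and 56.3 and 55.3 TPM in spleen libraries. Brain library 1 stood apart from the other brain libraries in both, and the groups overlapped. The long transcript made up 40.4%, 25.7% and 22.1% of ADAR TPM in brain libraries and 21.1% and 29.8% in spleen libraries.

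The IFIT genes code for proteins that bind viral RNA and block its translation. IFIT2 (chr10:89283694-89309271) had 8.25, 8.32 and 8.53 CPM in brain libraries and 4.17 and 3.29 CPM in spleen libraries. The brain libraries were nearly equal, at 8.37 ± 0.147 CPM, beside 3.73 ± 0.62 CPM in spleen libraries (SD, n = 3 and 2). The log2 fold change was 1.17 (SE 0.175, adjusted p 0.00565), a fold of 2.24. IFIT3, which steadies IFIT1 on RNA, had 15.4, 14.3 and 16.8 CPM in brain libraries and 11.1 and 10.7 CPM in spleen libraries. The groups did not overlap and the log2 fold change was 0.51 (SE 0.128, adjusted p 0.0395), but the call was lost when any 1 library was left out, with adjusted p up to 0.126. IFIT1 had 7.48, 7.94 and 9.0 CPM in brain libraries and 8.27 and 5.89 CPM in spleen libraries, and IFIT5 had 12.3 to 16.8 CPM in brain libraries and 14 and 11.5 CPM in spleen libraries. Both overlapped between the sites, with adjusted p of 0.558 and 0.46.

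Among the membrane proteins 1 gene was higher and 1 lower. IFITM1, a membrane protein that hinders viral entry at the cell surface, lies at chr11:310041-315272 and had 10.1, 13.2 and 10.7 CPM in brain libraries and 5.40 and 3.81 CPM in spleen libraries. All brain values were above all spleen values, with means of 11.4 ± 1.62 and 4.60 ± 1.13 CPM (SD, n = 3 and 2). The log2 fold change was 1.31 (SE 0.203, adjusted p 0.00674), a fold of 2.47. Its neighbour IFITM2 had 59.4, 76.9 and 85.5 CPM in brain libraries and 66.9 and 64.8 CPM in spleen libraries. These overlapped (log2 fold change 0.17, adjusted p 0.529; -0.25 with the mouse share as a covariate), as did those of BST2, which tethers new virus particles to the cell, with a log2 fold change of 0.06. IFITM3 was low, at 3.00 to 3.50 CPM in brain libraries and 2.28 and 2.68 CPM in spleen libraries (adjusted p 0.267).

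LY6E, a lipid-anchored surface protein and interferon target, was the gene that went the other way. It had 23.0, 28.8 and 28.1 CPM in brain libraries and 38.3 and 37.3 CPM in spleen libraries. Every brain library was below both spleen libraries, at 26.6 ± 3.16 against 37.8 ± 0.699 CPM (SD, n = 3 and 2). The log2 fold change was -0.51 (SE 0.119, adjusted p 0.0332), and leaving out any 1 library raised the adjusted p above the threshold, up to 0.113.

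Of the GTPases and other inhibitors of replication, 2 of 7 were higher. CMPK2, a mitochondrial nucleotide kinase encoded beside RSAD2, had 26.9, 27.7 and 28.5 CPM in brain libraries and 20.5 and 18.2 CPM in spleen libraries. Brain values were tightly grouped above spleen values, with a log2 fold change of 0.52 (SE 0.107, adjusted p 0.0209). The call was lost without any 1 brain library or without spleen library 2, with adjusted p up to 0.0799. SAMD9, an antiviral and growth-restraining protein, had 40.9, 33.0 and 33.6 CPM in brain libraries and 19.7 and 27.0 CPM in spleen libraries. The spleen libraries differed from each other as much as from some brain libraries, and the log2 fold change of 0.61 (SE 0.158, adjusted p 0.044) was lost in every fit without 1 library except the one without spleen library 2, with adjusted p up to 0.188. MX1, a GTPase that traps viral ribonucleoproteins, was the most abundant of the class per length. It had 92.6, 91.2 and 86.4 CPM in brain libraries and 82.4 and 86.5 CPM in spleen libraries, which overlapped. The log2 fold change was 0.09 with an interval from -0.12 to 0.30, so that a change of MX1 above 0.30 on the log2 scale lay outside the interval. MX2 was at 0.08 and SAMD9L at 0.25 on the same scale. RSAD2 (viperin) had 4.02, 4.40 and 3.27 CPM in brain libraries and 2.85 and 2.68 CPM in spleen libraries, and ISG20, a nuclease, had a log2 fold change of 0.63. In both every brain library was above both spleen libraries, and the adjusted p was 0.179 for RSAD2 and 0.0862 for ISG20.

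None of the 4 genes of the ISG15 system passed the test. HERC5 and USP18 had an unadjusted p under 0.05 and a higher brain level, and ISG15 had one and a lower brain level. ISG15, a ubiquitin-like modifier, had 17.1, 17.6 and 21.2 CPM in brain libraries and 33.0 and 19.8 CPM in spleen libraries. Spleen library 1 was far above the rest, the groups overlapped, and the log2 fold change was -0.50 with an interval from -0.95 to -0.05 (adjusted p 0.154). Without spleen library 1 it was -0.10 (adjusted p 0.781), and without spleen library 2 it was -0.83 (adjusted p 0.013). HERC5, the ligase that attaches ISG15, had 108, 85.2 and 102 CPM in brain libraries and 87.8 and 66.4 CPM in spleen libraries, also overlapping (log2 fold change 0.35, adjusted p 0.172). HERC6 was at 0.09 on the log2 scale. USP18, which removes ISG15 and dampens receptor signalling, had 8.79, 9.74 and 9.44 CPM in brain libraries and 6.86 and 5.04 CPM in spleen libraries. Its groups did not overlap, and its adjusted p was 0.0511 by edgeR's test. Over the alternatives it ran from 0.0121 by DESeq2 to 0.692 with the mouse share, and leaving out 1 library gave 0.0398 to 0.21.

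PARP14 was the 1 gene past the threshold among the ADP-ribosylation and nuclear body proteins. It codes for a mono-ADP-ribosyl transferase and had 147, 142 and 154 CPM in brain libraries and 112 and 117 CPM in spleen libraries. The libraries of each site were close together and the log2 fold change was 0.37 (SE 0.0949, adjusted p 0.0455), although the call was lost when any 1 library was left out, with adjusted p up to 0.177. The partners PARP9 and DTX3L were at 0.13 and 0.15 on the log2 scale. PML, the scaffold of nuclear bodies, was at 0.15, and SP100, another nuclear body protein, had 33.7, 33.0 and 31.8 CPM in brain libraries and 25.7 and 25.9 CPM in spleen libraries. SP100 did not overlap between the sites, with an adjusted p of 0.0565. TRIM22, an antiviral ubiquitin ligase, had 75.1, 75.8 and 62.4 CPM in brain libraries and 64.5 and 66.0 CPM in spleen libraries, which overlapped (log2 fold change 0.12, adjusted p 0.546).

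The remaining 9 genes, the IFI proteins and others, held the gene with the largest fold change. IFI44L (chr1:78619902-78646145), a target widely used to read interferon activity, had 78, 102 and 80 counts in brain libraries and 19 and 29 counts in spleen libraries. That was 2.0, 2.06 and 1.78 CPM in brain libraries and 0.433 and 0.575 CPM in spleen libraries, so the gene was low at both sites. The lowest brain library was above the higher spleen library by a wide margin, and the log2 fold change was 1.94 (SE 0.275, adjusted p 0.00438), a fold of 3.83. PLSCR1, a phospholipid scramblase that is also antiviral, had 42.8, 41.9 and 38.3 CPM in brain libraries and 30.9 and 26.8 CPM in spleen libraries. The groups did not overlap, and the log2 fold change of 0.51 (SE 0.11, adjusted p 0.0247) was lost without brain library 1, brain library 2 or spleen library 2, with adjusted p up to 0.104.

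The other 7 of this class did not pass. LGALS3BP, a secreted glycoprotein and the most abundant of the class per length, had 123, 144 and 129 CPM in brain libraries and 116 and 109 CPM in spleen libraries, which did not overlap (log2 fold change 0.23, adjusted p 0.21). EPSTI1 had few counts, 12, 12 and 19 in brain libraries and 4 and 7 in spleen libraries. Its log2 fold change of 1.46 had an interval from 0.25 to 2.67 and an adjusted p of 0.126. IFI44, the paralog beside IFI44L, had 18.2, 15.5 and 15 CPM in brain libraries and 17.8 and 13.1 CPM in spleen libraries, and thus overlapped where IFI44L did not. IFI27 had 23, 27 and 73 counts in brain libraries and 34 and 48 counts in spleen libraries, with an interval of its log2 fold change from -0.99 to 1.17. IFI6, IFI35 and XAF1 were at 0.18, 0.05 and -0.13 on the log2 scale.

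Compared per length, the 4 most abundant genes did not pass the test. PLSCR1 came next at a mean of 59.0 TPM and was higher, and LY6E, at 42.9 TPM, was lower. By mean TPM over the 5 libraries, given for the 44 genes with at least 90% of their counts on annotated transcripts, the highest were IFITM2 at 179.9 TPM, ADAR at 93.0, LGALS3BP at 89.1 and BST2 at 83.0. IFITM1 averaged 22.4 TPM in brain libraries and 9.22 TPM in spleen libraries, OAS1 averaged 11 TPM in brain libraries and 5.43 TPM in spleen libraries, and IFI44L was at 0.605 TPM over all libraries. In bands of mean CPM, 4 of 12 genes under 10 CPM were higher (33.3%, against 4.74% of all genes in that band) and 8 of 20 between 10 and 50 CPM (40%, against 8.34%). Of the 14 genes at 50 CPM or more 1 was higher (7.14%, against 6.38%). That gene was PARP14. Of these 14, 13 had a log2 fold change above 0, 6 had every brain library above every spleen library, and the median was 0.14, beside -0.04 for all genes in the band.

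**Figure D4:**
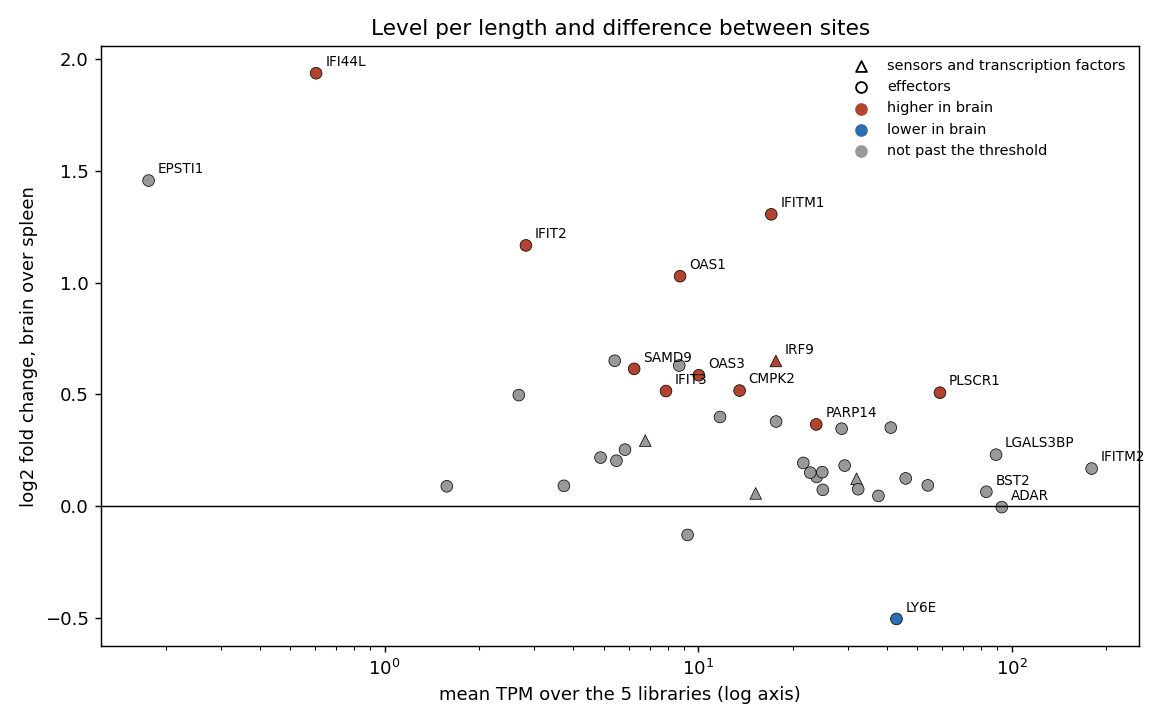
Mean level per length, in TPM over the 5 libraries on a log axis, of each tested interferon response gene with a TPM, against its log2 fold change, brain over spleen. Each point is 1 gene, shaped by class and coloured by its call. The genes with the highest TPM, from IFITM2 at 179.9 down to BST2 at 83.0, lie between -0.004 (ADAR) and 0.23 (LGALS3BP) on the vertical axis. PLSCR1, next at 59.0 TPM, lies at 0.51.

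Many of the genes lie in clusters, and in 7 of 9 clusters some members passed the test and others did not. At chr12:112905856-113011723 OAS1 and OAS3 were higher and OAS2, the last in the row, did not pass. In the IFIT cluster at chr10:89283694-89421605 IFIT2 and IFIT3 were higher and IFIT1 and IFIT5 were not past the threshold. Of the IFITM genes at chr11:303655-329475, IFITM1 was higher, and IFITM2 and IFITM3 did not pass. The same held for SAMD9 beside SAMD9L, CMPK2 beside RSAD2, IFI44L beside IFI44, and PARP14 beside PARP9 and DTX3L. In the other clusters, MX2 with MX1 and HERC6 with HERC5, no member passed. These differences in call within clusters were not tested, and neighbours with unlike calls need not differ in fold change. CMPK2 and RSAD2 had log2 fold changes of 0.52 and 0.50, with SE of 0.107 and 0.211. IFI44L and IFI44 were further apart, at 1.94 and 0.07. In the annotation, the spans of 24 of the 47 genes overlap a gene on the other strand, among them 8 past the threshold. Reads from bases that the transcripts of both genes hold cannot be told apart without a known strand setting. How far transcripts, rather than whole gene spans, overlap was not looked at. By span, IFIT2 and IFIT3 overlap LIPA, a lysosomal lipase gene, and CMPK2 and RSAD2 overlap each other.

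The genes around the response were read from the same fit. Of 78 listed genes of the interferon pathway, 53 were tested, 8 were higher (15.1%, against 6.01% of all genes) and 2 were lower, and the median log2 fold change was 0.17. Human interferon genes themselves, 21 in the list, were at or near 0 in the leukaemia cells. The human libraries had 0 counts for 18 of them, which allows up to 3 counts per group, or 0.0225 CPM in brain libraries and 0.0317 CPM in spleen libraries. The other 3, IFNW1, IFNK and IFNG, had at most 4 counts in a library. Interferon genes of the mouse host were not analysed here.

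Apart from IFNLR1, the receptor chains and their kinases were present in both groups, and 1 of 9 tested was higher. IFNLR1 was low, with 9, 8 and 14 counts in brain libraries and 15 and 60 counts in spleen libraries. Its log2 fold change of -1.72 did not pass edgeR's test (adjusted p 0.0882). IFNAR1 had 74.2, 70.8 and 75.1 CPM in brain libraries and 64.3 and 66.3 CPM in spleen libraries, and did not pass the test (log2 fold change 0.17, adjusted p 0.288). IFNAR2 was at -0.01 and TYK2 at -0.03 on the log2 scale. Of the kinases, JAK1 had 88.2, 91.9 and 88.2 CPM in brain libraries and 72.4 and 70.8 CPM in spleen libraries, without overlap, at an adjusted p of 0.0573. JAK2, which serves the receptor of interferon gamma, had 17.2, 17 and 15.7 CPM in brain libraries and 10.1 and 12.7 CPM in spleen libraries and was higher (log2 fold change 0.55, adjusted p 0.0417). Among the genes that lead to interferon induction, the ligase TRAF6 was higher (log2 fold change 0.43, adjusted p 0.0456) and the other 17 of 18 tested did not pass.

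Of 14 other factors and regulators, 3 were higher and 1 was lower. STAT3 was higher (0.62, adjusted p 0.0226), as were IRF2BP2, a corepressor that binds IRF2 (0.73, adjusted p 0.00377), and NLRC5, which switches on MHC class I genes (0.53, adjusted p 0.047). PTPN6, a phosphatase that restrains cytokine receptors, was lower, with 31.3, 29.97 and 29 CPM in brain libraries and 50.2 and 48.0 CPM in spleen libraries (log2 fold change -0.71, adjusted p 0.00338). The calls for JAK2, TRAF6, STAT3 and NLRC5 were each lost in at least 4 of the 5 fits without 1 library, with adjusted p up to 0.189, 0.176, 0.102 and 0.16.

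Of 12 tested genes known above all as targets of interferon gamma, 3 were higher and 1 was lower. GBP4, a guanylate-binding GTPase, had 81.3, 87.6 and 80.04 CPM in brain libraries and 30.03 and 24.3 CPM in spleen libraries. The brain libraries were close together and far above the spleen libraries, with a log2 fold change of 1.61 (SE 0.12, adjusted p 0.000228), and GBP4 was the pathway gene that still passed with the mouse share as a covariate. GBP5 had 65, 63 and 86 counts in brain libraries and 19 counts in each spleen library (log2 fold change 1.99, SE 0.312, adjusted p 0.00717). APOL6, an apolipoprotein L gene, was higher (0.42, adjusted p 0.0281), and its call was lost without any 1 library, with adjusted p up to 0.122. WARS1, a tryptophan tRNA ligase, was lower, with 45.2, 48.5 and 48.0 CPM in brain libraries and 70.8 and 65.9 CPM in spleen libraries (log2 fold change -0.53, adjusted p 0.0111; 0.0679 without brain library 1). GBP1 was at 0.03 on the log2 scale, and the chemokine CXCL10 had 3, 2 and 4 counts in brain libraries and 0 in spleen libraries.

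**Figure D5:**
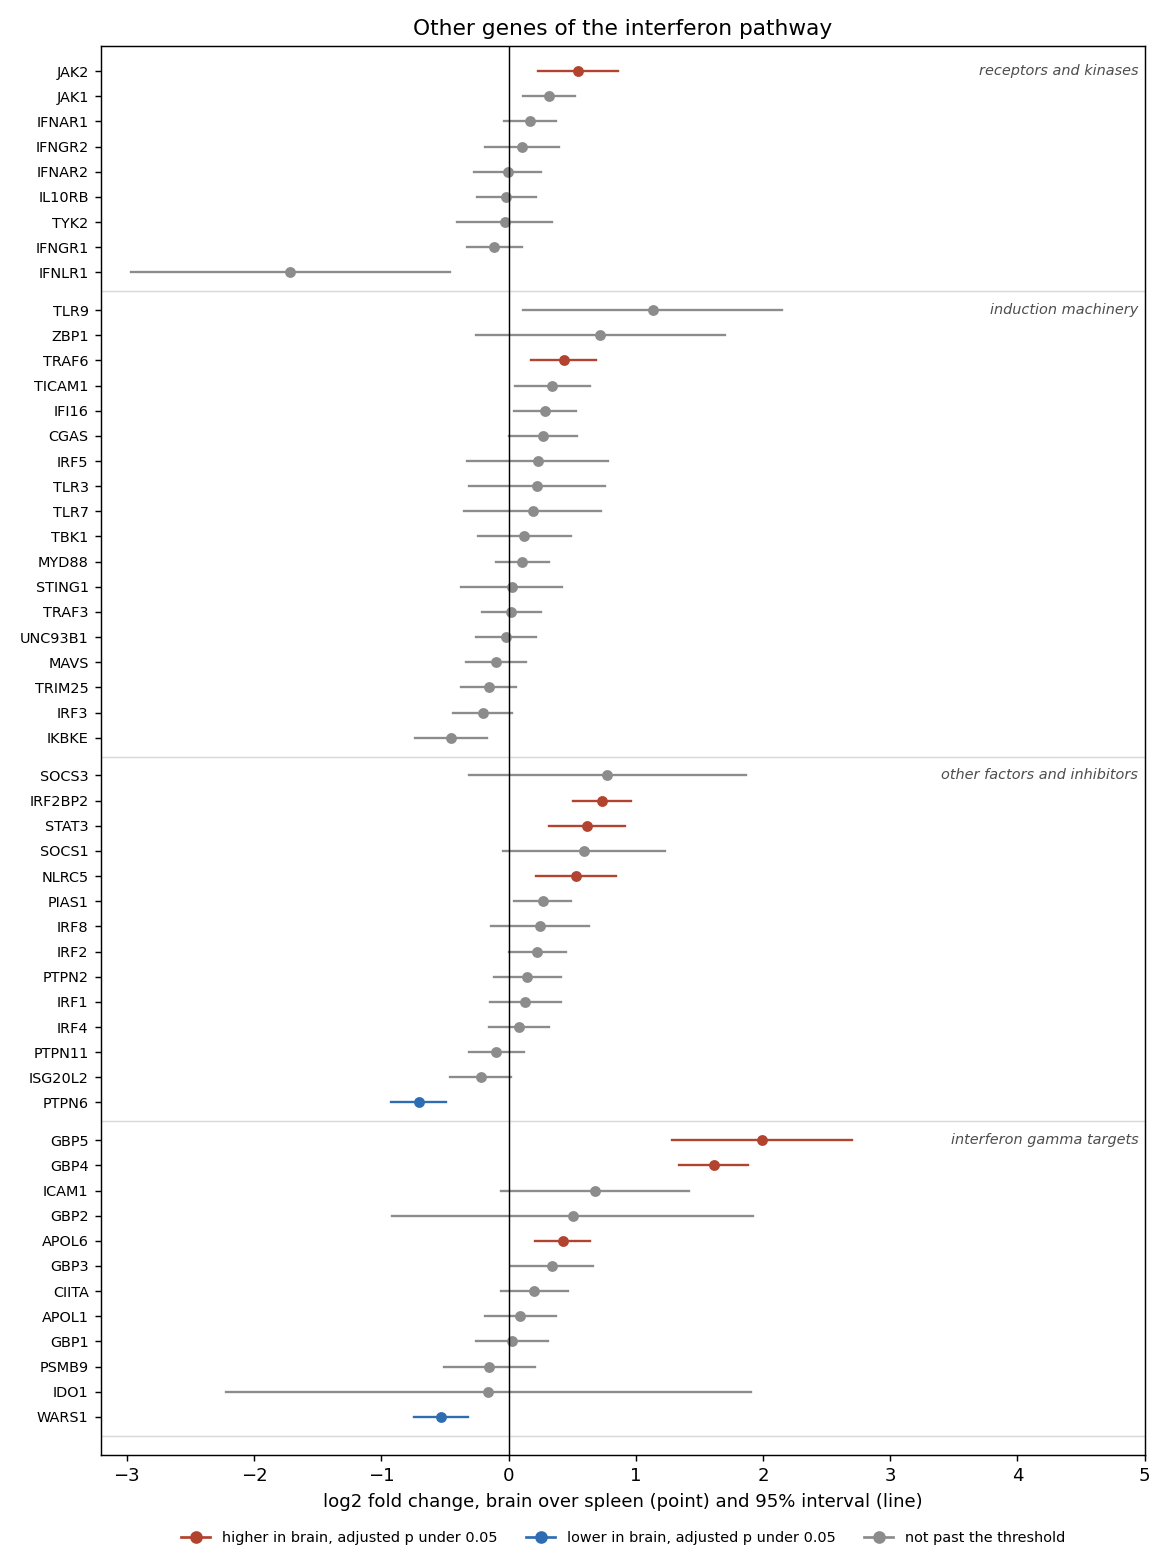
Log2 fold change, brain over spleen, of the tested interferon pathway genes outside the response set, grouped by role. Points are estimates over 3 brain and 2 spleen libraries and lines are 95% intervals; GBP4 at 1.61 and GBP5 at 1.99 lie to the right, and PTPN6 at -0.71 and WARS1 at -0.53 to the left of 0.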

How the data were processed

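RNA was sequenced from 3 brain and 2 spleen pools of 5 mice, with totals of 38387991 to 48764202 counts on human genes. Tools in the submitters' processing notes are kallisto 0.42.4, DESeq2, cutadapt 1.5 and bcl2fastq 1.8.4, with builds GRCm38 and GRCh38. How kallisto treated strand is not given in the sources used here. Values of the deposited gene table are whole-number estimated counts. Per the file headers, the transcript tables hold estimated counts and TPM from kallisto. A deposited table of log2 (rlog) values was used as an alternative. Each gene table has 1 column of no sample, which was not used. Estimated counts share reads between similar genes by a model, so values of the IFIT, IFITM and OAS paralogs are uncertain.

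Identifiers were matched to GENCODE 44 (86.4% of identifiers, 99.76% of counts). Rounded counts were tested with the quasi-likelihood test of edgeR 4.0.16 in R 4.3.3, after filterByExpr and TMM scaling, with the site as the only term. P-values were adjusted by Benjamini and Hochberg over 20419 genes, with calls at 0.05. Residual degrees of freedom were 3. The script was tested on simulated data. CPM, SE and 95% intervals of log2 fold changes, brain over spleen, come from this fit's counts and scaling. TPM was summed over a gene's transcripts among human transcripts and is not given for IRF7, IFIH1 and ISG15, whose counts lay in part or mostly on transcripts outside the annotation. Promoter windows are from RefSeq.

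The genes and lists were chosen with earlier results of these data known. All factors and sensors, all genes past the threshold, and the gene of highest TPM in each effector class were named by rule, and the others to account for every gene. A pathway gene that the rule takes is not reported here. Alternatives were DESeq2 1.42.0, limma 3.58.1 on the log2 values, other scalings and filters, transcript sums, the mouse share as covariate, the replicate number as a block, and leaving out each library. Per the labels' protocols, replicate numbers mark occasions, so the block paired libraries by the number in the titles; the spleen columns carry other numbers, which leaves this pairing uncertain. The deviations of libraries with the same number correlated at -0.0251 for number 1 and 0.146 for number 2.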

Additional observations from a re-analysis of the deposited data

How the results depend on the processing

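With 5 pooled libraries, single calls near the threshold were fragile. IRF7, OAS1, OAS3, IFIT2, IFITM1 and IFI44L passed in 13 of 14 alternatives, failing only with the mouse share as covariate. Over the genes named by rule and the alternatives, 405 results kept direction and side of the threshold, 101 lost the call, 2 gained it and 10 changed sign. The cause was not tested.

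The 13 higher and 1 lower response genes became 0 and 0 with the mouse share. The lower count was 2 without a filter and 0 by limma on the log2 values. Leaving out a library gave 7 to 10 higher and 0 to 1 lower. With the replicate block there were 11 higher and 1 lower, and IFIT3, PARP14 and SAMD9 lost their calls (adjusted p 0.0721, 0.0717 and 0.0587) while ISG20 gained one (0.0487); no other response gene's call changed.

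The median log2 fold change of 0.24 was 0.148 by limma, whose values are shrunken, and 0.220 to 0.341 without a library. For sensors and factors it was 0.428 with the block, 0.274 by limma, 0.376 with the mouse share, 0.379 with the double-stranded RNA enzymes added, and 0.415 to 0.524 without a library. For effectors it was 0.128 by limma and 0.196 to 0.306 without a library. Higher sensors and factors numbered 0 with the mouse share and 5 with the enzymes added, and 2 in each fit without a library. Higher effectors numbered 0 with the mouse share and 5 to 8 without a library. Of pathway genes, 5 were higher from transcript sums, 5 by limma, 1 with the mouse share and 3 to 6 without a library; 0 were lower with the mouse share and 1 to 3 without a library.

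Signs changed for 5 named genes. Without a library ADAR ran from -0.0559 to 0.0216, DHX58 from -0.0409 to 0.192, IFNAR2 from -0.123 to 0.107 and TYK2 from -0.181 to 0.11. TYK2 was 0.107 with the block and 0.11 with the mouse share, where IFITM2 was -0.25. Of the 23 tested response genes outside the naming rule, 6 gained a call in at least 1 alternative (OAS2, ISG15, ISG20, SAMD9L, SP100 and USP18) and 10 changed sign in at least 1. A spleen library left alone was taken to vary like the brain libraries. Over all genes, 714 lower genes became 1337 without a filter and 1353 by DESeq2. With the mouse share 114 genes were higher and 11 lower. Without brain replicate 1 there were 515 higher and 146 lower. Transcript sums cover only part of the counts of IRF7, IFIH1 and ISG15.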
